A study of Mus musculus with 12 samples.

Results

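The genes of the cytosolic ribosomal proteins were followed across the treatments of B16F10 cells, a mouse melanoma line. A gene was taken when its symbol named a protein of the large subunit (Rpl or Rplp and a number) or of the small subunit (Rps and a number, or Rpsa) and when it had at least 10 counts in each of the 12 samples. Of 24421 gene symbols in the count tables, 76 had such a name and 73 of these also met the count minimum, 44 of the large and 29 of the small subunit. Within this family, the measured values were thus used to choose the genes only through this minimum. The family itself was chosen with earlier results of these data known. The 4 groups had 3 samples each, and the methods describe independent biological repeats. Control cells received DMSO. DAC cells received 25 nM of 5-aza-2′-deoxycytidine, a nucleoside analog that inhibits DNA methylation, for 72 h. SFN cells received sulforaphane, an isothiocyanate of cruciferous vegetables, for the last 48 h, and DAC+SFN cells (the combination treatment) received both agents. The labels give 5 nM SFN for the single treatment and 5 µM for the combination, while the methods give the same micromolar dose for both, so that by the labels the comparison of DAC+SFN with SFN is also one of SFN dose.

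Poly(A) RNA was sequenced and the reads were counted per gene. Total counts per sample ranged from 15880957 to 27291436. The labelled cell type had its markers, since the 7 melanocyte markers looked for summed to between 21417 and 30155 CPM (counts per 1e+06 counts of the library, scaled by TMM) over all samples. They summed to 24236 to 30091 CPM in control and 21417 to 28412 CPM with DAC+SFN. There 2 of the 7, Pmel and Tyrp1, were lower than in control by edgeR and 0 were higher. Estimates were below 0 for 4 of the 7. The call of Pmel was lost in 2 and that of Tyrp1 in 5 of the 6 fits that left out 1 sample. Compared to DAC, 1 of the 7 was higher with DAC+SFN and 0 were lower. Of 7 fibroblast markers, 4 stayed under 1 CPM in every sample, while the collagen gene Col1a1 reached 356 CPM, and the list summed to between 19.9 and 367 CPM. Of the 3 fibroblast markers tested, Pdgfra, at 1.22 to 2.99 CPM, was lower than in control with SFN (log2 fold change −0.84, edgeR adjusted p = 0.0240) and with DAC+SFN (−0.73, edgeR adjusted p = 0.0249), and Col1a2 was lower with DAC+SFN than with DAC (−0.71, edgeR adjusted p = 0.0493). With 1 of the 6 samples left out, the call of Pdgfra was lost in 5 fits with SFN and in 2 with DAC+SFN. That of Col1a2 was lost in all 6. Of 6 leukocyte markers, 5 stayed under 1 CPM in every sample, and their summed level was 1.38 to 3.03 CPM in control and 2.87 to 5.46 CPM with the combination treatment, mostly from Lyz2, while Adgre1 was at 0 in all samples. Lyz2 was higher with DAC+SFN than in control (log2 fold change 1.02, edgeR adjusted p = 0.0289). This call was lost in 4 of the 6 fits that left out 1 sample. Without control replicate 2 the log2 fold change was 0.49 (edgeR adjusted p = 0.248). The part of these markers in the results below was not tested.

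Each ribosome joins a small subunit, which reads the mRNA, to a large subunit, which makes the peptide bond, and each subunit holds 1 copy of most of its proteins. The mRNAs of these proteins are among the most abundant in growing cells and are made in step with ribosomal RNA. Most start with a cytosine followed by a run of pyrimidines, the 5′ terminal oligopyrimidine (TOP) motif, through which mTORC1 and the RNA-binding protein LARP1 control their translation and stability. The genes have many processed pseudogenes, so that short reads from them often match several places of the genome.

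The TOP start shared by these genes could be read in the reference sequence (RefSeq, GRCm38.p6), where 53 of the 73 genes had an entry. A cytosine followed by at least 4 pyrimidines stood exactly at an annotated start in 12 of the 53 genes (22.6%), and in 813 of 27025 genes of the whole table (3.01%). Within 5 bases of an annotated start, the share was 47.2% of the ribosomal protein genes and 21.2% of all genes. The windows of 5 genes with lower counts in the combination treatment and of Rps27, which missed the count minimum, are shown from 30 bases before to 20 bases after the annotated start, 5′ to 3′ on the strand of the gene, with the pyrimidine run in capitals. They lie at chr4:86857348-86857397 (Rps6, minus strand), chr2:39005112-39005161 (Rpl35, minus strand), chr16:33056452-33056501 (Rpl35a, plus strand), chr7:118116128-118116177 (Rps15a, minus strand), chr10:128626487-128626536 (Rps26, minus strand) and chr3:90213629-90213678 (Rps27, minus strand).
Rps6: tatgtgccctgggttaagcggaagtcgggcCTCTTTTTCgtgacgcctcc
Rpl35: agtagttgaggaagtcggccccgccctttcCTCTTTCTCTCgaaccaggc
Rpl35a: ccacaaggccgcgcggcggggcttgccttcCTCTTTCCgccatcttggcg
Rps15a: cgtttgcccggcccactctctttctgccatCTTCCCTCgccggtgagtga
Rps26: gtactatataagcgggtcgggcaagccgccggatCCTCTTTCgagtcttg
Rps27: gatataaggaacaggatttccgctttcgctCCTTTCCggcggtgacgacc
In Rps26 the run starts 4 bases after the annotated start and in the others at it. By contrast, the annotated starts of the following genes with lower counts in the combination treatment had no such run within 5 bases, in the same window at chr5:107900498-107900547 (Rpl5, plus strand), chr12:28635934-28635983 (Rps7, minus strand) and chrX:74270786-74270835 (Rpl10, plus strand).
Rpl5: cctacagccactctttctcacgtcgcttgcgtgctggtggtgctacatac
Rps7: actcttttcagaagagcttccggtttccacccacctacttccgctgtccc
Rpl10: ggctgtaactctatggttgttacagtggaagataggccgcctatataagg
The annotated start can lie away from the base where transcription begins, so that a missing run says only that these letters are not in this window.

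Further motifs were searched on both strands of the 300 bases from 250 before to 50 after the start. The letters CCGGAAG, which the ETS factor GABP binds, were found in 21 of the 53 genes (39.6%) and in 9.93% of all genes of the table. The letters AAGATGG, the core that YY1 binds, were found in 8 genes (15.1%) against 7.28% of all genes. The core of the antioxidant response element TGACNNNGC, the site of the factor NRF2 that SFN is known to activate, was found in 10 genes (18.9%) and in 3781 of the 27025 genes of the table. The 10 genes with an entry whose counts were lower in the combination treatment were set beside the 43 others for each of these motifs. CCGGAAG was found in 4 of the 10 and 17 of the 43, TGACNNNGC in 2 and 8, and AAGATGG in 5 and 3. A TOP run stood exactly at the start in 4 and 8, and within 5 bases of it in 5 and 20. These counts are a description of few genes, and AAGATGG had the widest gap of the motifs searched.

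The count minimum left out 3 ribosomal protein genes. Rpl26, of the large subunit, had 0 counts in all 12 samples. Rpl34, also of the large subunit, had 0 to 9 counts. Rps27, a zinc finger protein of the small subunit, had 15, 14 and 22 counts in control, 14, 10 and 16 in DAC, 12, 28 and 18 in SFN and 5, 9 and 6 in DAC+SFN. The counts of Rps27 in the combination treatment were thus lower than in all 9 other samples, and the minimum removed a gene that was low in that group. Without a filter on low counts, its log2 fold change between DAC+SFN and control was −1.37 (SE 0.479, edgeR adjusted p = 0.0328). It did not pass the test compared to DAC (−0.98, edgeR adjusted p = 0.245) or to SFN (−1.33, edgeR adjusted p = 0.128). Just inside the minimum stood Rpl30, of the large subunit, with 11 to 45 counts. The next were Rpl36a with at least 1619 counts and Rps28 with at least 1696.

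Reads that aligned to more than 1 place in the genome had been discarded before counting. Of the 75-base windows of its main transcript, Rps27 shared 98.5% letter for letter with a transcript of another gene. Over the 73 genes the shared part ranged from 0 to 91.9% with a median of 47.4%, and 71 genes shared at least 1 window. The share was 91.9% in Rpl10, 84.6% in Rpl36a, 84.1% in Rps6, 68.9% in Rps7 and 47.9% in Rpl5. It was 40.1% in Rpl30, 57.5% in Rpl26 and 41.4% in Rpl34, below the value of many genes with high counts. The levels of these genes are therefore uncertain, as their counts rest on the parts of the transcript that no other gene shares. The part of the shared windows in the differences between groups was not tested. Their median was 42.5% in the genes with lower counts in the combination treatment and 47.5% in the others.

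In control cells, 72 of the 73 genes had more than 100 CPM, and 18 were among the 100 genes with the most counts of the whole table. Per kb of exon, the highest levels were those of Rplp1 with 1679 ± 279 CPM per kb and Rplp0 with 1163 ± 73.4 (SD, n = 3), both of the stalk that recruits translation factors. They were followed by Rpl19, of the large subunit, with 1093 ± 105, Rps15, a head protein of the small subunit, with 946 ± 97.1, and Rps2, at the mRNA entry, with 933 ± 114. The intervals of 1 SD around the levels from Rplp0 to Rps2 overlapped from each gene to the next. The lowest levels were those of Rps28 with 67.6, Rps15a with 67.3, Rpl22 with 66.2, Rpl36a with 61.6 and Rpl30 with 0.311 CPM per kb. The median was 299 CPM per kb, and 718 when the length of the main coding transcript was used, which kept 3 of the 5 highest and 3 of the 5 lowest genes. By that length Rpl22 stood at 407 and Rps28 at 304 CPM per kb, and both left the 5 lowest.

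The 73 genes together held between 4.32% and 5.09% of the counts of each library. Their share was 4.54%, 5.09% and 4.71% in control, 4.89%, 5.03% and 4.92% in DAC, 4.75%, 5.08% and 4.89% in SFN and 4.41%, 4.76% and 4.32% in DAC+SFN, for replicates 1, 2 and 3. The means were 4.78% ± 0.282, 4.95% ± 0.0724, 4.91% ± 0.163 and 4.50% ± 0.230 (SD, n = 3). Within each replicate number the combination treatment had the lowest share, while across replicate numbers its values overlapped those of control and SFN. Its values were all under those of DAC. In every group replicate 2 had the highest share. Fewer cells with a transcript and less of it per cell cannot be told apart in such bulk samples.

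**Figure D1:**
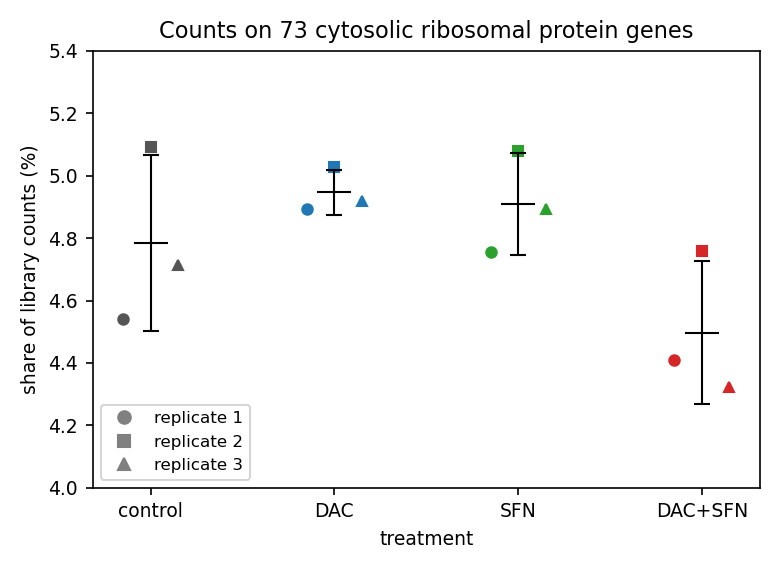
Share of the counts of each library (y axis, percent, not starting at 0) on the 73 ribosomal protein genes by treatment (x axis), with 1 point per sample, the marker shape for the replicate number and the mean and SD of 3 samples in black. DAC+SFN lies lowest within each replicate number, from 4.32% to 4.76%, and replicate 2 lies highest in each group.

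In the combination treatment compared to control, 14 ribosomal protein genes were lower and 0 were higher by edgeR, 19.2% of the 73 genes. Of all 11638 genes tested 31.6% were called, 14.7% lower and 17.0% higher, so that the share of ribosomal protein genes called lower was not far from that of all genes. DESeq2 called 15 lower and 0 higher, and at an unadjusted p under 0.05 there were 23 in either direction, against 42.4% of all genes. The changes were small, with log2 fold changes of the 14 genes between −0.26 and −0.16, and none also passed a fold change of 2, as 2.66% of all genes did. Such genes were also missing in the comparisons with DAC and SFN, where they made up 0.928% and 0.112% of all genes. Of the 73 estimates, 65 were below 0, compared to 48.6% of all genes. Their median log2 fold change was −0.10 and that of all genes 0.01. Within replicates 1, 2 and 3 the median difference was −0.03, −0.09 and −0.16. The 14 genes came from both subunits, 8 from the large and 6 from the small. No test was made of the genes as a group.

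**Figure D2:**
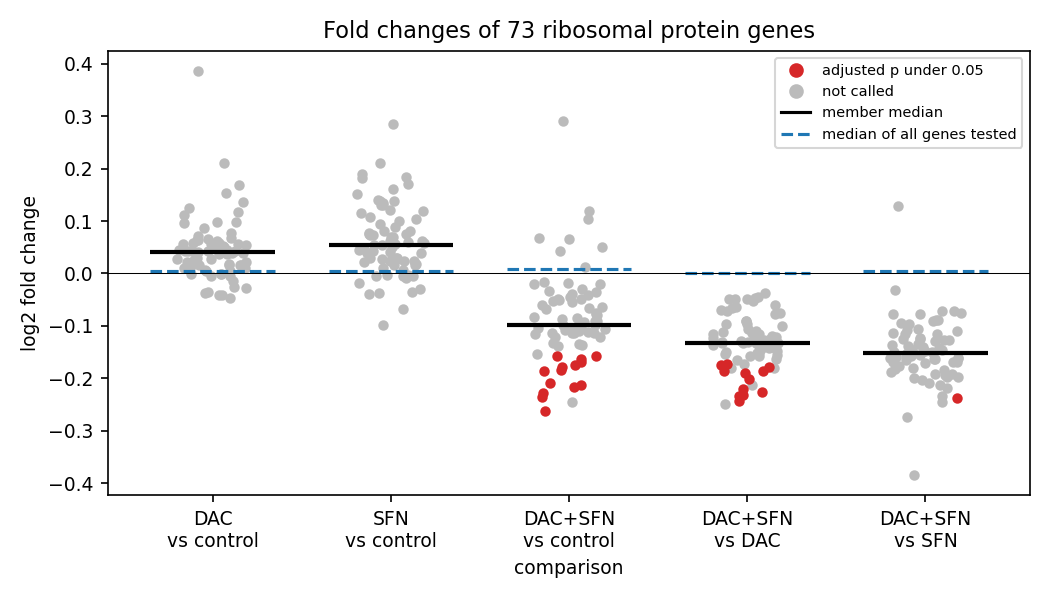
Log2 fold change (y axis) of each of the 73 ribosomal protein genes in 5 comparisons (x axis), with genes at an adjusted p under 0.05 in red, the median of the 73 genes as a black line and that of all 11638 genes tested as a dashed blue line. The median lies at 0.04 and 0.05 for the single treatments and at −0.10, −0.13 and −0.15 for the comparisons of DAC+SFN with control, DAC and SFN.

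Rpl5 (chr5:107900502-107909005, GRCm38) encodes a protein that carries the 5S RNA into the large subunit and can bind the p53 regulator MDM2. It had 924, 929.6 and 875 CPM in control, 942, 880.5 and 829 in DAC, 838, 855 and 855 in SFN and 772, 751 and 752 in DAC+SFN. All 3 values of the combination treatment lay below all 9 others. Compared to control it fell by 0.26 on the log2 scale (SE 0.0531, edgeR adjusted p = 0.00198).

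Rps7 (chr12:28630854-28635953), of the small subunit and also able to bind MDM2, had 907, 958 and 839.8 CPM in control, 917, 909 and 874 in DAC, 849.8, 899 and 884 in SFN and 755, 789 and 752 in DAC+SFN. Again the combination treatment did not overlap any other group. Rps7 fell by 0.24 on the log2 scale (SE 0.0526, edgeR adjusted p = 0.00375). The calls of Rpl5 and Rps7 held in every alternative fit, with adjusted p of at most 0.0249 and 0.0430.

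Rps6 (chr4:86854660-86857412), the small subunit protein that the S6 kinases phosphorylate, had 1242, 1366 and 1088 CPM in control, 1216, 1284 and 1119 in DAC, 1169, 1237 and 1111 in SFN and 1075, 1107 and 966 in DAC+SFN. The groups of control and DAC+SFN overlapped, since control replicate 3 lay below DAC+SFN replicate 2. Within each replicate number DAC+SFN was the lowest, and Rps6 fell by 0.23 on the log2 scale (SE 0.0521, edgeR adjusted p = 0.00434) compared to control. Its TOP run is in the first of the windows printed above.

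Rpl32, of the large subunit, had 774, 889 and 756 CPM in control and 695, 719.7 and 674 with DAC+SFN, without overlap, and fell by 0.21 on the log2 scale (SE 0.0552, edgeR adjusted p = 0.0100). Rps15, in the head of the small subunit near the decoding site, had 573, 665 and 549 CPM in control and 517, 588 and 436 with DAC+SFN. Here the groups overlapped through DAC+SFN replicate 2, and Rps15 fell by 0.22 on the log2 scale (SE 0.0606, edgeR adjusted p = 0.0138).

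The other 9 genes called lower had log2 fold changes between −0.21 and −0.16. In the large subunit they were Rpl10, which joins the subunit last and completes its active centre, Rpl17, Rpl23a and Rpl35, which stand around the exit of the peptide tunnel, and Rpl7 and Rpl35a. In the small subunit they were Rps15a, Rps16, whose tail reaches the tRNA site, and Rps26, next to the exit of the mRNA. Of all 73 genes, 11 (15.1%) had groups without overlap, all lower with DAC+SFN, against 14.3% of all genes lower and 15.1% higher.

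**Figure D3:**
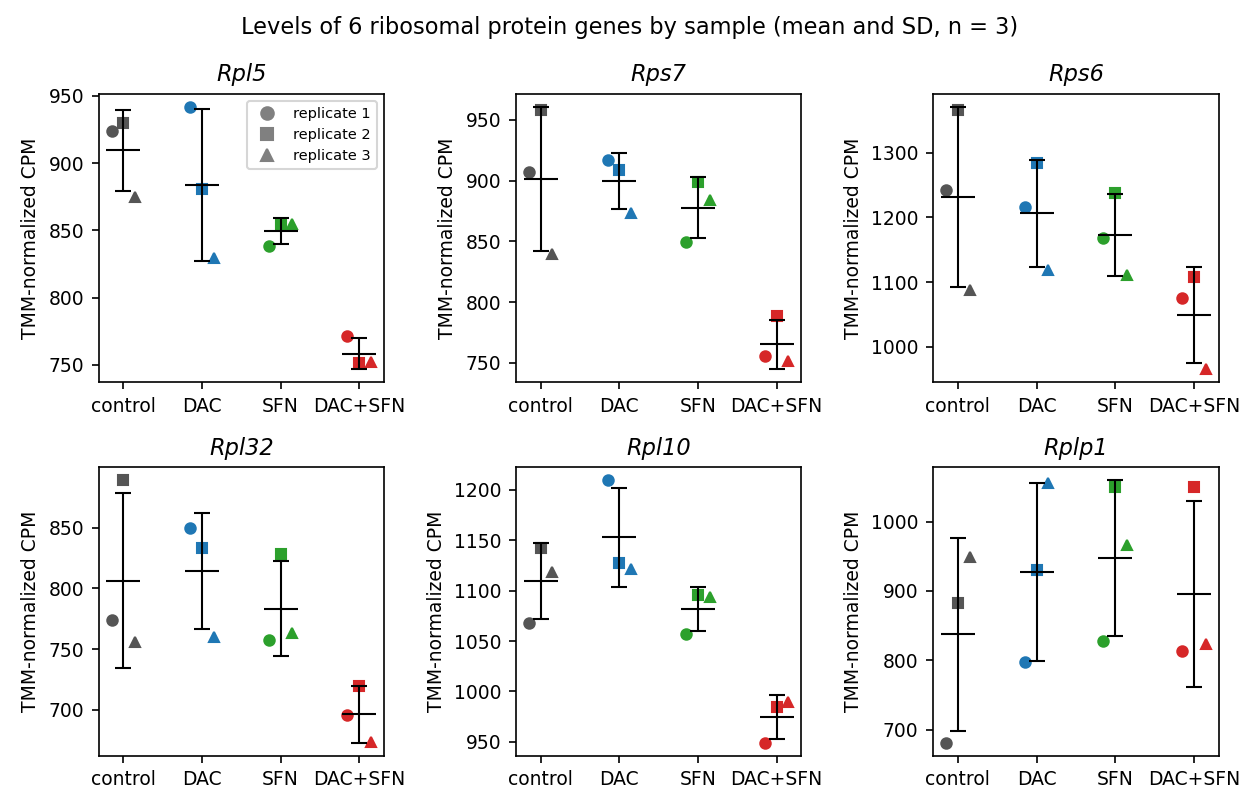
TMM-normalized CPM (y axes, which do not start at 0) of Rpl5, Rps7, Rps6, Rpl32, Rpl10 and Rplp1 in the 4 treatments (x axes), with 1 point per sample, the marker shape for the replicate number and the mean and SD of 3 samples in black. The values of Rpl5, Rps7, Rpl32 and Rpl10 with DAC+SFN lie below all other samples, while those of Rplp1 lie among them.

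The count of 14 genes rested on the block of the replicate number, and without it 2 genes were called lower. It was 9 without control replicate 1, 4 without control replicate 2, 7 without DAC+SFN replicate 1 and 8 without DAC+SFN replicate 3. The 2 genes called without the block were Rpl5 and Rps7. Of the other 12, all but Rps6 also lost the call when at least 1 of the 6 samples was left out.

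With DAC compared to control, 0 genes were called by edgeR and 0 by DESeq2, and 3 had an unadjusted p under 0.05. Of all genes, 0.180% were called, all higher, and 10.1% had an unadjusted p under 0.05. The median log2 fold change of the ribosomal protein genes was 0.04. With SFN compared to control, 0 genes were called by edgeR and 1 higher by DESeq2, and 9 had an unadjusted p under 0.05. Of all genes, 13.9% were called, 5.65% lower and 8.27% higher, and 28.8% had an unadjusted p under 0.05. The median was 0.05, and 60 of the 73 estimates were above 0, as many as with DAC, while 49.0% of all genes were below 0 with SFN and 48.1% with DAC. Both comparisons share the control samples. The smallest adjusted p in both was that of Rps19, the gene most often mutated in Diamond-Blackfan anaemia. It had 369, 481 and 504 CPM in control, 493, 494 and 523 in DAC, 466, 542 and 554 in SFN and 447, 535 and 482 in DAC+SFN, with edgeR adjusted p = 0.0619 for SFN and 0.429 for DAC. Control replicate 1 was the lowest of these samples.

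In the combination treatment compared to DAC, 12 genes were lower and 0 higher, 16.4% of the 73 genes. Of all genes 16.1% were called, 6.60% lower and 9.55% higher. At an unadjusted p under 0.05 there were 40 genes, against 30.5% of all genes. All 73 estimates were below 0, compared to 49.8% of all genes, with a median of −0.13. In 23 genes (31.5%) the groups did not overlap, all lower with DAC+SFN, against 8.98% of all genes lower and 9.19% higher. The smallest adjusted p was that of Rpl10, which had 1209.7, 1127 and 1122 CPM with DAC and 949, 984 and 989.8 with DAC+SFN and fell by 0.24 on the log2 scale (SE 0.0542, edgeR adjusted p = 0.00840). It was followed by Rps7, Rpl5, Rpl32 and Rpl17. Rps7 fell by 0.23 on the log2 scale (SE 0.0526, edgeR adjusted p = 0.00871). Rpl5 fell by 0.22 on the log2 scale (SE 0.0531, edgeR adjusted p = 0.0126).

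The other genes called lower were Rps6, Rpl13a, Rps15a, Rpl28, Rps14, Rpl23a and Rps16. Of these, Rpl13a can leave the ribosome to silence inflammatory mRNAs. It had 749, 734 and 735 CPM with DAC and 647, 690.2 and 615 with DAC+SFN, without overlap, and fell by 0.19 on the log2 scale (SE 0.053, edgeR adjusted p = 0.0276). The lists of 14 and 12 genes had 9 genes in common, 64.3% of the first and 75.0% of the second, but both comparisons use the same DAC+SFN samples. The count was 0 without the block and 0 in a fit of the DAC and DAC+SFN samples alone. It was 0 without DAC replicate 1, 7 without DAC replicate 3, 5 without DAC+SFN replicate 1 and 6 without DAC+SFN replicate 2. DESeq2 called 19.

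Compared to SFN, the combination treatment had 1 gene lower and 0 higher, while 1.61% of all genes were called, 0.670% lower and 0.937% higher. This was Rpl35, at the exit of the peptide tunnel, with 552, 609 and 504 CPM in SFN and 473, 553 and 393 in DAC+SFN. The groups overlapped, and DAC+SFN was lower within each replicate number. Rpl35 fell by 0.24 on the log2 scale (SE 0.055, edgeR adjusted p = 0.0471), and the call was lost without the block and when any of the 6 samples was left out. At an unadjusted p under 0.05 there were 50 genes of the 73, against 17.8% of all genes, with a median of −0.15. Estimates were below 0 in 72 genes, compared to 48.7% of all genes. The exception was Rpl30. In 27 genes (37.0%) the groups did not overlap, all lower with DAC+SFN, against 6.86% of all genes lower and 5.23% higher. The number called depended on the test and on the samples in the model, with 8 lower by DESeq2 and 34 in an edgeR fit of the SFN and DAC+SFN samples alone.

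The interaction asks whether the combination treatment differed from the sum of the single treatments on the log2 scale. By edgeR 0 of 11638 genes were called, the ribosomal protein genes included, and the lowest adjusted p among them was 0.847. DESeq2 called 0 of the 73 genes. An unadjusted p under 0.05 was found for 44 of the 73 genes and for 5.87% of all genes, and all 73 estimates were below 0 compared to 52.2% of all genes. The median estimate was −0.19, against −0.01 over all genes. The median of the genes stood slightly above control in the single treatments and below it in the combination treatment, but for no single gene did this pass the adjusted test. With 1 sample left out, the median ranged from 0.0087 to 0.069 for DAC and from 0.027 to 0.068 for SFN. For DAC+SFN compared to control it ranged from −0.13 to −0.069.

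The genes were then followed by their roles in the ribosome, in the combination treatment compared to control. Of the stalk proteins, Rplp0 had 1929 ± 122 CPM in control and 1871 ± 245 with DAC+SFN (SD, n = 3, edgeR adjusted p = 0.607). Rplp1 had 838 ± 139 and 896 ± 133 CPM (edgeR adjusted p = 0.363) and Rplp2 331 ± 40.3 and 302 ± 57.9 CPM (edgeR adjusted p = 0.318). The differences of these genes were within the spread of the replicates. Rpl11, the partner of Rpl5 on the 5S RNA, had 481 ± 33.1 CPM in control and 438 ± 44.6 with DAC+SFN, and did not pass the test (edgeR adjusted p = 0.0797), unlike Rpl5. That the pair differed from each other was not tested.

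Of 4 X-linked genes, 1 was called lower (25.0%, against 14.7% of all genes), Rpl10. Rps4x, of the small subunit, had 1253, 1272 and 1255 CPM in control and 1156, 1195 and 1232 with DAC+SFN. These values did not overlap, but the adjusted p was 0.325 by edgeR. Rpl39, a small protein in the wall of the peptide tunnel, had 195 ± 36.6 and 203 ± 26.8 CPM, and Rpl36a 102 ± 3.73 and 95.6 ± 3.13 CPM, with edgeR adjusted p = 0.695 and 0.243. Of 16 tested genes that are mutated in Diamond-Blackfan anaemia, 5 were called lower (31.2%, against 19.2% of the 73 genes and 14.7% of all genes) and 0 higher, with a median log2 fold change of −0.11. The 5 genes were Rpl5, Rps7, Rpl35, Rps26 and Rpl35a. With 1 of the 6 samples left out, the calls of Rpl5 and Rps7 were kept in all fits. Those of Rpl35 and Rpl35a were each lost in 5 of the 6 fits and that of Rps26 in 3.

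Rpl3, next to the peptidyl transferase centre, had 1259 ± 26.4 CPM in control and 1172 ± 47.6 with DAC+SFN (edgeR adjusted p = 0.152). Rps27a, made as a fusion with ubiquitin, had 644 ± 29.0 and 622 ± 28.1 CPM (edgeR adjusted p = 0.574). Rpl22 had 193 ± 11.4 and 188 ± 5.28 CPM (edgeR adjusted p = 0.693), and Rpsa, which is also known as a laminin receptor, 1900.3 ± 283 and 1828 ± 232 CPM (edgeR adjusted p = 0.564).

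More of these genes were called by the replicate number than in any treatment comparison. In the same model, 38 of the 73 genes (52.1%) differed between the 3 replicate numbers, compared to 33.9% of all genes, and DESeq2 called 40. The mean over the 4 groups was highest in replicate 2 for 60 of the 73 genes and for 35 of the 38 called. The median deviation of the genes from their own mean was −0.03, 0.08 and −0.04 on the log2 scale in replicates 1, 2 and 3. The smallest adjusted p were those of Rpl35 (0.000268), Rpl41 (0.00128), the shortest of the ribosomal proteins, and Rpsa (0.00152). Rpsa had 1769, 2225 and 1707 CPM in the control samples. The library numbers of the labels follow the replicate numbers, so that a library batch and the replicate number cannot be told apart.

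Among the 12 samples, the genes stood lowest in DAC+SFN replicate 3, with a median deviation of −0.19 and 71 of 73 genes below their own mean, and in DAC+SFN replicate 1, with −0.11 and 70 genes. In DAC+SFN replicate 2 the median deviation was 0.01 and 32 genes were below their mean. SFN replicate 2 stood highest, with 0.12 and 1 gene below. Without DAC+SFN replicate 3, the median log2 fold change against control stayed below 0, and the count of genes called lower was 8.

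**Figure D4:**
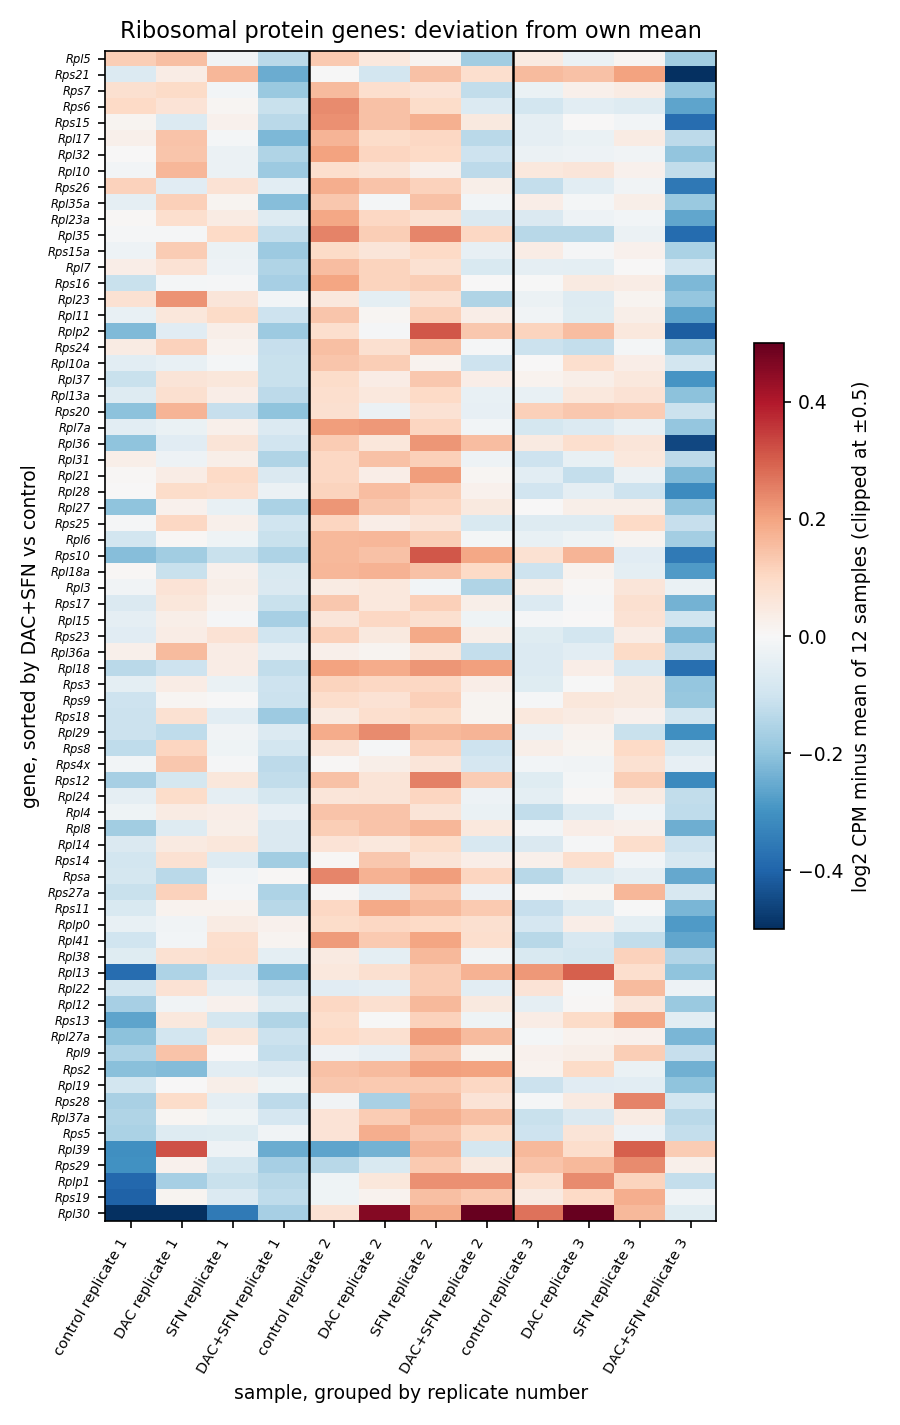
Deviation of each sample from the mean of the 12 samples (color, log2 CPM, clipped at ±0.5) for the 73 ribosomal protein genes (rows, sorted by the log2 fold change of DAC+SFN against control) and the samples (columns, grouped by replicate number). Replicate 2 is red for most genes, and within each replicate number DAC+SFN is the bluest column, down to a median of −0.19 in replicate 3.

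Ribosomal proteins and close paralogs whose symbols the rule does not take were examined beside these genes. Of 9 that could be tested, 2 were lower with DAC+SFN compared to control (22.2%, against 14.7% of all genes) and 0 higher, with a median log2 fold change of −0.08. Rps3a1, of the small subunit, had 1546, 1597 and 1441 CPM in control and 1255, 1308 and 1296 with DAC+SFN, without overlap, and fell by 0.25 on the log2 scale (SE 0.054, edgeR adjusted p = 0.00322). Rpl22l1, the paralog of Rpl22, had 31.7, 24.4 and 40.9 and 21.03, 18.1 and 35.1 CPM. Its groups overlapped, it was lower within each replicate number, and it fell by 0.40 on the log2 scale (SE 0.125, edgeR adjusted p = 0.0228). This call was lost in 3 of the 6 fits that left out 1 sample. Gnb2l1, the gene of the ribosomal scaffold protein RACK1, had 1342 ± 98.8 and 1287 ± 63.9 CPM. It did not pass the test (edgeR adjusted p = 0.418).

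A list of 77 genes held those named as proteins of the separate ribosome of mitochondria. That each product is part of this ribosome was not checked. Of the 77 genes, 7 were lower and 0 higher with a median log2 fold change of −0.06. The share called lower, 9.09%, was below the 14.7% of all genes. Mrpl48 fell by 0.34 on the log2 scale (SE 0.0657, edgeR adjusted p = 0.00152), and Mrps36 fell by 0.41 on the log2 scale (SE 0.0891, edgeR adjusted p = 0.00329). Mrpl18 fell by 0.30 on the log2 scale (SE 0.0704, edgeR adjusted p = 0.00469). Of 11 elongation and termination factors, 2 were lower (18.2%, against the same 14.7%) and 0 higher. Eef1a1, which brings aminoacyl-tRNA to the ribosome and whose mRNA has a TOP start, had 10419, 11846 and 9665 CPM in control and 8659, 8824 and 9019 with DAC+SFN. These groups did not overlap and Eef1a1 fell by 0.26 on the log2 scale (SE 0.0691, edgeR adjusted p = 0.00980). Eef2k, a kinase that inhibits elongation, fell by 0.33 on the log2 scale (SE 0.0823, edgeR adjusted p = 0.00757). Each of these 2 calls was lost without 1 sample, that of Eef1a1 without DAC+SFN replicate 2 (edgeR adjusted p = 0.0569) and that of Eef2k without control replicate 2 (edgeR adjusted p = 0.0547). Tpt1, another TOP mRNA, had 1406 ± 39.2 and 1294 ± 12.4 CPM (edgeR adjusted p = 0.112).

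Other genes around the ribosome were called in both directions, where 17.0% of all genes were higher and 14.7% lower. Of 37 initiation factors, 1 was higher (2.70%) and 2 were lower (5.41%), with a median of −0.02. The helicase gene Eif4a2 rose by 0.39 on the log2 scale (edgeR adjusted p = 0.000256), Eif2s2, of the factor that brings the first tRNA, fell by 0.37 on the log2 scale (SE 0.068, edgeR adjusted p = 0.00102), and Eif3c fell by 0.21 on the log2 scale (SE 0.0488, edgeR adjusted p = 0.00541). These 3 also passed the test with SFN compared to control in the same directions, but there the call of Eif2s2 was lost in 4 and that of Eif3c in 1 of the 6 fits that left out 1 sample. Of 68 ribosome assembly factors, 11 were higher (16.2%) and 5 lower (7.35%), with a median of 0.07, shares that lay near or under those of all genes. Mdn1, an ATPase that strips assembly factors from the large subunit, rose by 0.66 (edgeR adjusted p = 0.000267), Nop10, of the RNPs that make pseudouridine, by 0.47 (edgeR adjusted p = 0.000126) and Rrp12 by 0.37 (edgeR adjusted p = 0.00598). Nop10 also rose with SFN compared to control, by 0.43 (edgeR adjusted p = 0.000599).

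Of 15 genes of RNA polymerase I and its factors, 2 were higher and 1 was lower. Together these are 3 of 15, a smaller share than the 31.6% of all genes. Polr1a, the largest subunit, rose by 0.23 (edgeR adjusted p = 0.0141) and Polr1e by 0.24 (edgeR adjusted p = 0.0427), while Taf1b, of the promoter factor SL1, fell by 0.34 on the log2 scale (SE 0.0817, edgeR adjusted p = 0.00594). With 1 of the 6 samples left out, the call of Polr1a was lost in 2 fits (edgeR adjusted p up to 0.104) and that of Polr1e in 4 (up to 0.251), while that of Taf1b was kept in all 6. Of 15 genes of mTORC1, LARP1 and the S6 kinases, 3 were higher and 2 lower, 33.3% in all and close to the 31.6% of all genes. Deptor, an inhibitor of mTOR, had 49.5, 81.2 and 46.4 CPM in control and 123, 107 and 86.7 with DAC+SFN, without overlap, and rose by 0.87 (edgeR adjusted p = 8.24e-05). Rptor, the mTORC1 scaffold, rose by 0.23 (edgeR adjusted p = 0.0258) and Eif4ebp1, a repressor of cap-dependent translation, fell by 0.30 on the log2 scale (SE 0.0926, edgeR adjusted p = 0.0248). With 1 sample left out, the call of Rptor was lost in 4 of the 6 fits (edgeR adjusted p up to 0.176) and that of Eif4ebp1 in 3 (up to 0.0910), and that of Deptor was kept in all. Deptor also rose with SFN compared to control, by 0.62 (edgeR adjusted p = 0.00240). Eif4ebp1 was also lower there (log2 fold change −0.36, edgeR adjusted p = 0.0189), a call lost in 4 of the 6 fits. Of 7 snoRNA host genes, whose transcripts have TOP starts, 0 were called with DAC+SFN compared to control. With SFN compared to control 2 were higher, where 8.27% of all genes were, among them Gas5, which had 107 ± 9.91 CPM in control, 132 ± 9.53 with SFN and 119 ± 9.04 with DAC+SFN.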

How the data were processed

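RNA of 12 B16F10 samples, 3 per group, was sequenced by the authors from poly(A) libraries as single reads of 75 bases. They trimmed the reads with Trimmomatic 0.38 after FastQC 0.11.7, aligned them to mm10 with TopHat2 2.1.1 and counted uniquely aligned reads per gene with HTSeq. The authors deposited raw counts per gene symbol. The annotation and strand setting of the counting are not given in the sources used here. Samples were grouped by their labels.

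Genes that reached 1 CPM in 3 or more libraries (11638) were tested with the quasi-likelihood F-test of edgeR 4.0.16 (legacy fit, TMM, two-sided) in R 4.3.3, in 1 model of all samples. A gene was called when its p-value, adjusted over all genes tested by Benjamini-Hochberg, was under 0.05. The replicate number was a block and stands for the batch term of the study's methods. Over all genes, samples of the same number deviated together in all 18 pairs (mean r = 0.544, lowest 0.270), so the numbers were taken as pairing the samples. Over the 73 genes, r with DAC+SFN replicate 3 was −0.12 for DAC replicate 3 and 0.24 for control replicate 3. Pairs of unlike numbers were not set beside these. The SE was obtained by dividing the log2 fold change by the root of F. Log2 differences within a replicate number carry a prior count of 2. CPM per kb used the exons of GENCODE M21 (GRCm38), in which all 73 genes were found. At the lowest total, 1 CPM stands for about 16 counts. DESeq2 1.42.0, other scalings, filters and fits, the fit without the block and each sample left out were alternatives. The fits were tested on simulated data.

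The genes and lists were chosen with earlier results of these data known. Named genes are the 5 called genes with the smallest adjusted p in each direction of a comparison, the 5 highest and the 5 lowest per kb, 14 listed genes, the 3 with the smallest adjusted p for the replicate number, genes under or nearest the count minimum, tested ribosomal proteins outside the symbol rule, and the 3 genes of each list with the smallest adjusted p. The remaining called ribosomal protein genes, Rps19 and some promoter windows were named after their values were seen. One result is not reported here.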

Additional observations from a re-analysis of the deposited data

Results flagged for a closer look

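The median log2 fold change of the 73 ribosomal protein genes was 0.054 for SFN compared to control, with a median above 0 in each of the 3 replicates (0.09, 0.02 and 0.06), and −0.13 for the combination treatment compared to DAC, with a median below 0 in each of the 3 (−0.14, −0.07 and −0.18). The medians thus lay on opposite sides of 0 in the comparisons of SFN without and with DAC, but 0 of the 73 genes were called with SFN compared to control, and the difference of these medians was not tested. For single genes the difference is the interaction, for which edgeR called 0 genes and DESeq2 called 0 of the 73, with an unadjusted p under 0.05 for 44. By the labels the SFN dose also differs between these comparisons.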

How the results depend on the processing

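Without the replicate block, the genes called lower in DAC+SFN were 2 in place of 14 compared to control, 0 in place of 12 compared to DAC and 0 in place of 1 compared to SFN. With only the samples of the groups compared they were 3, 0 and 34, and 1 gene was called higher with DAC and 3 with SFN compared to control. With a fold change above 2 there were 0 in each comparison. DESeq2 called 19 lower compared to DAC and 8 compared to SFN, and 1 higher with SFN. Without a filter on low counts 22 were lower compared to DAC and 10 compared to SFN, and 2 were higher with SFN. With each sample left out in turn, 4 to 12 were lower compared to control, 0 to 10 compared to DAC and 0 to 1 compared to SFN, and 0 to 1 were higher with SFN and 0 to 1 with DAC+SFN compared to control. The log2 ratio of the share of counts on these genes ranged from 0.0016 to 0.085 for SFN over control (without control replicates 1 and 2) and from −0.13 to −0.041 for DAC+SFN over control (without DAC+SFN replicate 2 and control replicate 2). The median level per kb in control was 482 CPM with the longest transcript and 718 CPM with the main coding transcript, the latter added after seeing the data. The cause of these shifts was not tested. The median log2 fold changes kept their sign and moved by less than 1 SD of the replicates in all alternatives, and no result was reversed. Genes with few counts, such as Rpl30, have wide errors.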
